A study of Mus musculus with 4 samples.

Results

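Cornified envelope and terminal squamous genes were followed here in cultured mouse prostate basal cells, with and without DAPT. The 10 genes were Ivl, Lor, Sprr1a, Sprr1b, Sprr3, Tgm1, Evpl, Ppl, Sbsn and Krtdap. They were picked by name, as every probe on the array whose transcript accession maps to one of these symbols, which gave 13 probes of 41174. All 10 genes were among the 21477 genes tested. Ivl fell 3.15-fold under DAPT, Sprr1b rose 3.14-fold and Tgm1 rose 1.99-fold. The other 7 did not pass the test.

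The cells were basal cells sorted from the prostate of adult FVB mice and grown as spheres, colonies that each start from a progenitor. Vehicle spheres received DMSO and DAPT spheres received 5 µM DAPT, with the medium changed every 24 h. DAPT blocks γ-secretase, which cuts the active part of Notch receptors free from the membrane, and the study set out to see what the loss of Notch signalling does to basal cells. There were 2 arrays per group, with sphere RNA read in red and universal mouse reference RNA in green. How long the spheres were treated and the age of the mice beyond adult are not given in the sources used here. DAPT acts on every γ-secretase substrate, so the treated group is not a Notch mutant. Whether replicate arrays stem from separate mice or cultures is not stated in the labels, so a p-value here reflects how far these samples scatter, which may be technical scatter.

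The cornified envelope is the crosslinked protein shell that replaces the plasma membrane of a stratified squamous cell in its last stage. Envoplakin and periplakin, encoded by Evpl and Ppl, form an early scaffold with involucrin (Ivl) under the membrane, and transglutaminases such as Tgm1 then crosslink loricrin (Lor) and the small proline-rich proteins (Sprr) onto it. Suprabasin (Sbsn) and Krtdap are secreted by differentiating suprabasal keratinocytes. The normal prostate epithelium is glandular and does not cornify, while cultured basal cells of several glands can switch on squamous genes. In skin, Notch signalling promotes the switch from basal to suprabasal keratinocyte.

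Promoter sequences are shown for the genes whose results point in opposite directions within one gene cluster, Ivl and Sprr1b, and for Sprr1a, the close relative of Sprr1b. They come from RefSeq on GRCm38.p6 and are printed 5′ to 3′, with capitals marking matches to the AP-1 letters TGANTCA.
Ivl, chr3:92573791-92573985, minus strand: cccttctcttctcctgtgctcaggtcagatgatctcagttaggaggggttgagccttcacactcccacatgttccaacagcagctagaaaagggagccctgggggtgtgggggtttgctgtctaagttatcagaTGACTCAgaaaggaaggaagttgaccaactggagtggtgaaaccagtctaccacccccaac
Sprr1b, chr3:92438818-92439029, minus strand: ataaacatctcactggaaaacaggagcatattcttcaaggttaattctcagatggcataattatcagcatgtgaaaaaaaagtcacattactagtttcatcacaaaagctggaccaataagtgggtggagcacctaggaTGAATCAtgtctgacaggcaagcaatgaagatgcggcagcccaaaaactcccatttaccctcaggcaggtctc
Sprr1a, chr3:92485882-92486131, minus strand: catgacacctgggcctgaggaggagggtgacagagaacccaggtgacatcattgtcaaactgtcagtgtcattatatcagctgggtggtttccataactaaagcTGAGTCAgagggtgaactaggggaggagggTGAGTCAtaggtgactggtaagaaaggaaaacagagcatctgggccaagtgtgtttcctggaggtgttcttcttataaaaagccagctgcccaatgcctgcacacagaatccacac
The Sprr1a sequence runs to the transcript start given in the promoter table. The Ivl and Sprr1b sequences stop short of that start, where the annotated span of the gene begins in the RefSeq gene table. Distances are counted from the transcript start of the promoter table.
The RefSeq promoter table held 8 of the 10 genes, without Evpl and Ppl. Within 250 bases before the start, the AP-1 letters, searched on both strands, occurred in 6 of these 8, namely Ivl, Lor, Sprr1a, Sprr1b, Sbsn and Krtdap. They occurred in 6.75% of all 32851 promoters of the table. The match lay 116 bases before the transcript start in Ivl, 111 in Sprr1b, 146 and 116 in Sprr1a and 48 in Lor, so the genes that moved in opposite directions, Ivl and Sprr1b, both held one. The letters TGGGAA, the core bound by the Notch partner RBPJ, were found on either strand in 3 of the 8, Tgm1, Sbsn and Krtdap, and in 21.6% of all promoters. No match of one motif overlapped a match of the other. These are matches of letters, and the arrays measured no binding.

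All 4 arrays lay on 1 slide with 1 scan time, vehicle at positions 4 and 3 and DAPT at positions 2 and 1, so position and treatment cannot be told apart. The DAPT arrays were brighter, with a median red signal of 2.84 and 2.40 times local background against 1.95 and 1.83 for vehicle. The scanner software marked 49.6% and 50.9% of DAPT spots as non-uniform or as outliers, against 11.5% and 29.2% of vehicle spots. Among the 13 probes here, 20 of 26 spots were marked under DAPT and 6 of 26 under vehicle, and the part of brightness or marking in the results was not tested. Log ratios correlated at 0.92 between the vehicle arrays, at 0.94 between the DAPT arrays and at 0.84 to 0.88 between groups. As for the labelled cell type, 7 of 8 basal markers lay above the reference on all 4 arrays, at log2 ratios of 1.96 to 5.30, and Ngfr lay below it, at -0.53 to -0.17. The luminal keratins Krt8 and Krt19 were also above it, at 3.65 to 5.67, so these ratios do not set basal apart from luminal cells.

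Of the 10 genes, 2 were called higher and 1 lower at an adjusted p under 0.05 (limma, Benjamini-Hochberg over all 21477 genes). Over all genes, 607 or 2.83% were called higher and 858 or 3.99% lower. The median change of the 10 genes was -0.03 (log2), beside -0.06 over all genes tested. Both DAPT arrays lay above both vehicle arrays for 4 of the 10 genes, against 21.8% of all genes, and below them for 3, against 31.9%. The other 3 overlapped. Of the 13 probes, 11 were well above background in red on every array, and 9 of the 10 genes had such a probe.

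**Figure D1:**
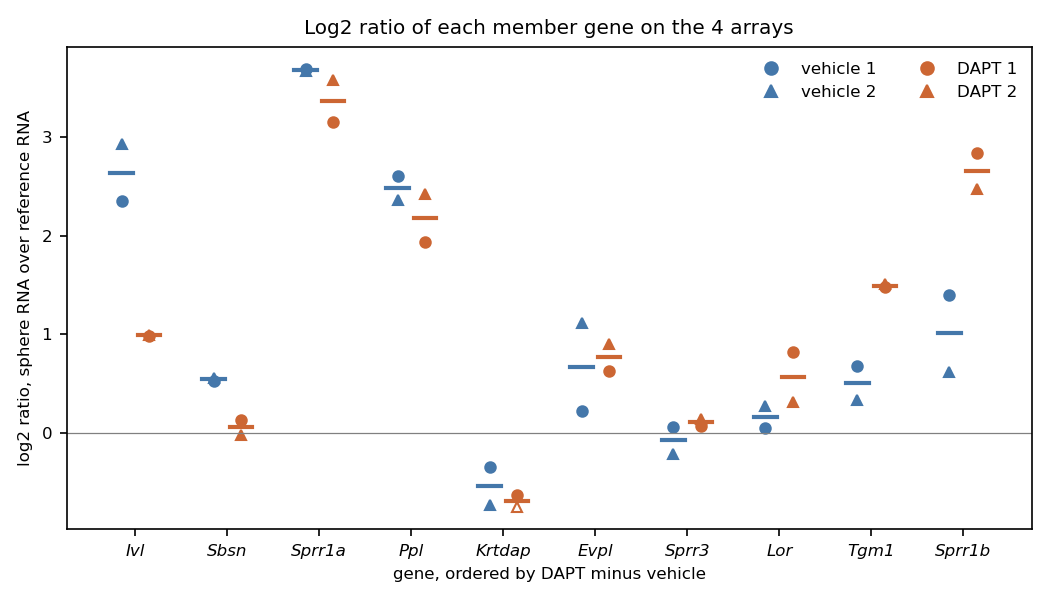
Log2 ratio of sphere RNA over reference RNA (y axis) for each of the 10 genes (x axis, ordered by change), with circles and triangles for the 2 arrays of each group and bars for group means. An open symbol was not well above background in red. The ratios of Ivl fall from above 2.3 to about 1, and those of Tgm1 and Sprr1b rise with no overlap of the groups, while the other genes shift by less than 0.5.

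Among the scaffold genes, the one that changed was Ivl, which encodes involucrin, a glutamine-rich substrate of transglutaminases. The Ivl probe read 628.5 and 1118.5 in red on the vehicle arrays and 641.5 and 457 on the DAPT arrays, over a local background of 54 to 61. In green, the reference RNA read 356 and 569.5 beside vehicle and 886 and 600 beside DAPT. The log2 ratio was 2.35 and 2.93 in vehicle and 0.98 and 1.00 under DAPT. The vehicle arrays were the high ones in the ratio and the groups did not overlap, although the raw red signal of the first vehicle array was below that of the first DAPT array. Ivl fell by 1.65 ± 0.22 (log2, SE, n = 2 per group, 95% interval -2.14 to -1.17, limma adjusted p = 0.00107). That is 3.15-fold lower and rank 102 from the bottom of all genes tested. After loess and quantile normalization of mean brightness between arrays, the difference of Ivl was -1.42 in the red channel and 0.23 in the green. The larger part thus lay in the red channel after this normalization, while the red signals before it overlapped between groups. Without each array in turn, the change of Ivl was -1.95 to -1.36. The call was lost in the red channel tested alone (limma adjusted p = 0.329). Ivl spots were marked on the second vehicle array and on both DAPT arrays, so Ivl could not be tested with marked spots left out.

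Evpl, which encodes envoplakin, had a pair of probes, both with changes near 0. The brighter Evpl probe gave log2 ratios of 0.22 and 1.12 in vehicle and 0.63 and 0.90 under DAPT. The DAPT arrays lay between the vehicle arrays, and the change was 0.09 ± 0.27 (SE, limma adjusted p = 0.871). The red and green channels of this Evpl probe differed by similar amounts, 0.91 and 0.81. The second Evpl probe gave 1.10 and 0.40 in vehicle and 0.59 and 0.96 under DAPT, a change of 0.02. The vehicle arrays took opposite order on these probes, so the spread within the group exceeded the difference. The sign of the Evpl change turned under 4 of 15 other settings.

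Ppl encodes periplakin, the partner of envoplakin. Its log2 ratios were 2.61 and 2.37 in vehicle and 1.94 and 2.42 under DAPT. The groups overlapped, and the change of -0.30 ± 0.22 (95% interval -0.78 to 0.17, limma adjusted p = 0.441) did not pass. Centring each array on its median in place of loess turned it to 0.12.

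**Figure D2:**
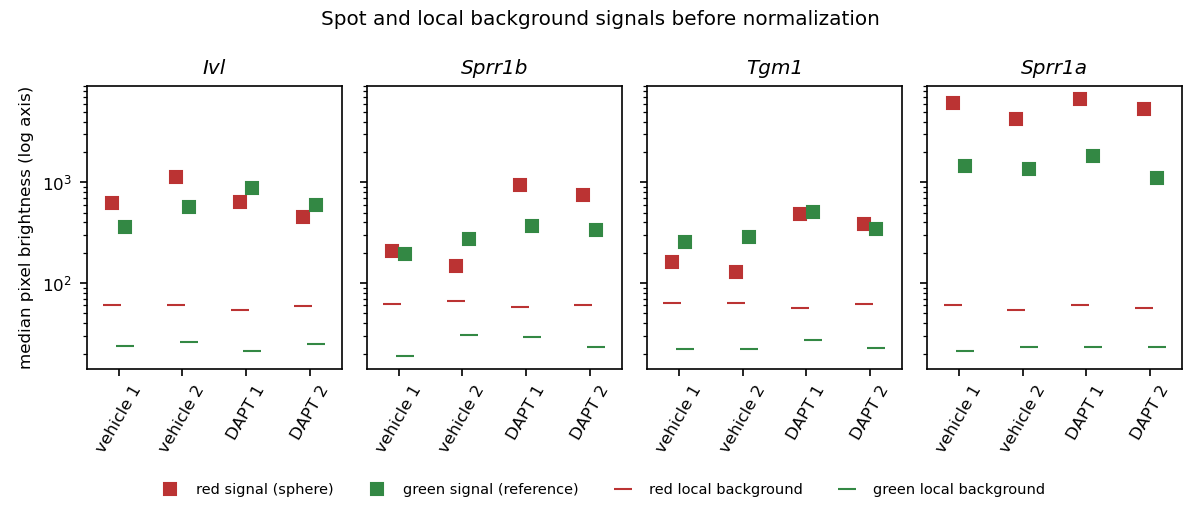
Median pixel brightness before normalization (y axis, log scale) of the red sphere channel and the green reference channel on each array, for Ivl, Sprr1b, Tgm1 and Sprr1a, with lines for the local background. Red Sprr1b and Tgm1 signals are low on both vehicle arrays and high on both DAPT arrays, red Ivl signals overlap while its green signals are higher beside DAPT, and all spots of these genes lie above background.

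Among the proline-rich precursors, Sprr1b rose while its paralog Sprr1a did not pass. Both encode small proline-rich proteins that bridge other envelope proteins. The Sprr1b probe read 207 and 147 in red on the vehicle arrays and 947 and 742 on the DAPT arrays, beside green signals of 194 and 272 and of 366 and 338. In red the Sprr1b probe was low in vehicle, at 3.34 and 2.19 times local background, against 16.3 and 12.4 times under DAPT. Its log2 ratio was 1.40 and 0.62 in vehicle and 2.84 and 2.48 under DAPT, so both DAPT arrays lay above both vehicle arrays. Sprr1b rose by 1.65 ± 0.26 (log2, SE, n = 2 per group, 95% interval 1.09 to 2.21, limma adjusted p = 0.00281), 3.14-fold. It had the 36th largest rise among all genes tested. The difference of Sprr1b was 1.72 in the red channel and 0.07 in the green. The call held without each array in turn, with changes of 1.26 to 2.04, and was lost when spots on debris were kept (1.18, adjusted p = 0.379).

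Sprr1a had a high ratio over the reference in both groups. Its probe read 6137 and 4261.5 in red on the vehicle arrays and 6718 and 5387 on the DAPT arrays. Its log2 ratio was 3.70 and 3.67 in vehicle and 3.16 and 3.58 under DAPT. Both DAPT arrays were slightly lower, by a change of -0.32 ± 0.21 (95% interval -0.77 to 0.14, limma adjusted p = 0.399), which did not pass. This value depends on the scaling: it was 0.14 with median centring, 0.17 with the scanner's processed signals, and -1.08 with scale normalization between arrays, where it passed (adjusted p = 0.0148). Sprr1a and Sprr1b are close copies, and how far each probe reads the other gene's RNA was not tested.

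Sprr3, a proline-rich precursor known from internal squamous epithelia such as oesophagus, was dim. Its probe read 109 and 99 in red in vehicle and 140 and 138.5 under DAPT, with backgrounds of 55.5 to 67. Its log2 ratio was 0.06 and -0.21 in vehicle and 0.07 and 0.14 under DAPT. The highest vehicle ratio and the lowest DAPT ratio nearly met, and the change of 0.18 ± 0.20 (limma adjusted p = 0.636) did not pass.

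Lor encodes loricrin, the main protein of the finished epidermal envelope, and was close to background as well. The Lor probe read 110 and 123.5 in red in vehicle and 175 and 136 under DAPT. Its log2 ratio was 0.04 and 0.27 in vehicle and 0.82 and 0.32 under DAPT. Both DAPT arrays were above both vehicle arrays, and the change of 0.41 ± 0.22 (95% interval -0.07 to 0.89, limma adjusted p = 0.295) did not pass. Its green signals were 229 and 307 beside vehicle and 280 and 266 beside DAPT. After loess and quantile normalization of mean brightness between arrays, the difference of Lor was 0.02 in red and -0.39 in green. The signals before normalization do not show this split, so which channel carried the shift depends on the normalization.

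Tgm1, the membrane-bound transglutaminase that crosslinks the envelope, rose. Its probe read 161.5 and 128 in red on the vehicle arrays and 489.5 and 382 on the DAPT arrays, beside green signals of 256 and 287 and of 506 and 347. The red signals were low in vehicle, at 2.56 and 2.03 times local background, against 8.74 and 6.11 times under DAPT. The log2 ratio of Tgm1 was 0.68 and 0.33 in vehicle and 1.48 and 1.51 under DAPT. Both DAPT arrays lay above both vehicle arrays and close to each other. Tgm1 rose by 0.99 ± 0.20 (log2, SE, n = 2 per group, 95% interval 0.55 to 1.43, limma adjusted p = 0.0128), 1.99-fold. The difference was 1.07 in its red channel and 0.08 in its green channel. The call held without each array in turn (0.82 to 1.17), and was lost with the scanner's processed signals (0.76, adjusted p = 0.232) and with debris spots kept (0.55, adjusted p = 0.594).

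Neither secreted suprabasal gene passed. The brighter Sbsn probe gave log2 ratios of 0.53 and 0.56 in vehicle and 0.13 and -0.03 under DAPT, and the second Sbsn probe 0.69 and 0.52 against 0.23 and 0.03. Both probes placed the DAPT arrays below the vehicle arrays, at -0.49 ± 0.19 (95% interval -0.91 to -0.07, limma adjusted p = 0.152) for the brighter one and -0.47 for the second. The channels differed between these Sbsn probes. On the brighter one the difference was 0.34 in red and 0.83 in green, and on the second it was -0.31 in red and 0.16 in green.

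Krtdap, keratinocyte differentiation-associated protein, lay below the reference in all 4 libraries. The Krtdap probe used in the test gave log2 ratios of -0.35 and -0.73 in vehicle and -0.63 and -0.76 under DAPT, where the last was not well above background in red. The groups overlapped, and the change was -0.16 ± 0.21 (limma adjusted p = 0.706). The other Krtdap probe read 78 to 94 in red over a background of 54 to 59 and was not well above background on any array, so no fold is given for it.

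**Figure D3:**
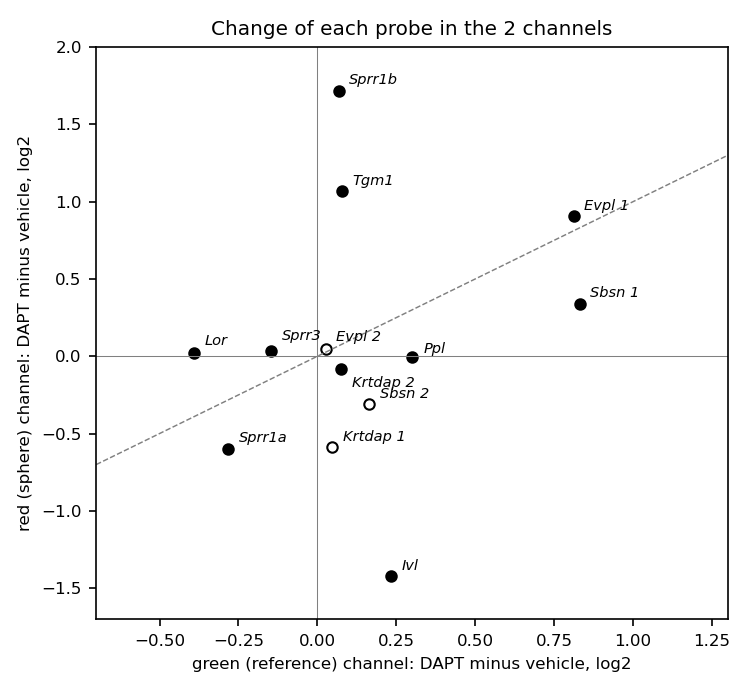
Change under DAPT of each of the 13 probes in the green reference channel (x axis, log2) and the red sphere channel (y axis, log2). Values are after loess and quantile normalization of mean brightness between arrays. Filled points are the probes used in the test, and points on the dashed line have an unchanged ratio. Sprr1b, Tgm1 and Ivl lie far from the line along the red axis. Evpl, Lor and the brighter Sbsn probe owe much of their place to the reference channel as normalized.

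The size of a red signal in these cultures reflects both the number of cells that express a gene and the RNA in each, and fewer cells and less RNA per cell cannot be told apart. Marker lists of other cell types were read beside the result. Of 10 fibroblast and smooth muscle markers, 6 were called lower (60%, beside 3.99% of all genes). The mean log2 ratio of the list was -0.12 and 0.23 in vehicle and -1.12 and -0.98 under DAPT. Of 8 luminal markers tested, of 10 listed, 3 were called lower (37.5%). The list mean was 3.39 and 3.30 in vehicle and 2.71 and 2.65 under DAPT. Of 8 basal markers, 1 was called lower (12.5%, Krt15, -1.08), with list means of 3.37 to 3.54 on all arrays. None of the 4 immune markers tested (of 5 listed) or the 1 endothelial marker tested (of 4) was called, with list means of -1.16 to -0.66 and -0.40 to 0.01. The part of these cell types in the changes of Ivl, Sprr1b and Tgm1 was not tested.

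Other genes of cornification were read from a list of 148 genes in 8 groups, of which 116 had a probe and 100 could be tested. Of these, 4 were called higher (4%, beside 2.83% of all genes) and 7 lower (7%, beside 3.99%), with a median change of -0.14. Of the 4 higher, Prr9, Sprr2h and Elovl4 entered the test only through the DAPT group, and with the filter on all 4 arrays 1 gene was higher. Without the first vehicle array the counts were 11 higher and 4 lower, without the second vehicle array 14 were lower, and without the first DAPT array 2 were higher and without the second 7. With the replicate number as a block they were 8 higher and 10 lower. Of the 11 genes called, Ly6d and Gjb2 lost the call only in the red channel tested alone. The other 9 lost it with debris spots kept, at adjusted p of 0.0884 (Sprr2e) to 0.722 (Prr9). Sprr2e, Tgm2 and Prr9 also lost it with the scanner's processed signals (0.121, 0.176 and 0.0738) and with median centring (0.0949, 0.0938 and 0.249). Hopx lost it with processed signals (0.0985), Elovl4 and Sprr2h with median centring (0.290 and 0.0668), and S100a16 with both (0.472 and 0.459). None of the 11 changed sign.

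Of 26 further envelope precursors, 2 were called higher (7.69%, beside 2.83% of all genes) and 1 lower (3.85%, beside 3.99%). Their median was -0.02. Both genes called higher, Sprr2h and Prr9, entered the test only through the DAPT group, where they are high. Sprr2e, a small proline-rich precursor, fell from log2 ratios of 3.72 and 3.83 to 2.73 and 2.75, a change of -1.03 ± 0.19 (limma adjusted p = 0.00799). Sprr2h, from the same family, rose by 0.88 ± 0.22 (limma adjusted p = 0.0335). It was not well above background in red in vehicle, and the red channel alone gave 1.38-fold (0.46 ± 0.31, limma adjusted p = 0.563). The Sprr2h call was lost without the first DAPT array (adjusted p = 0.184) and without the second vehicle array (0.0792). Prr9, a proline-rich gene beside Lor, rose from 0.67 and 0.11 to 1.85 and 1.47, a change of 1.27 ± 0.23 (limma adjusted p = 0.00765). Its probe was well above background in red on 3 of the 4 arrays, so it entered the test through the DAPT group, where it is high. The brightest precursors that did not pass were Sprr2k (-0.36 ± 0.23), Sprr2b (-0.52 ± 0.30) and Sprr2a1 (0.04 ± 0.27), and all that did not pass ranged from -0.86 to 0.75. Sprr2 genes are near-identical, and their probes may share targets, which makes the split among them uncertain.

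Of 9 crosslinking and processing enzymes, 1 was lower (11.1%, beside 3.99% of all genes) and none higher. Tgm2, the widely expressed tissue transglutaminase, fell from log2 ratios of 2.36 and 2.50 to 1.50 and 1.58, a change of -0.89 ± 0.19 (limma adjusted p = 0.0172), while Tgm1 rose. The other enzymes, among them Padi3 (0.53 ± 0.43) and Padi4 (0.11 ± 0.19), which convert arginine to citrulline, and the protease Blmh (-0.09 ± 0.21), ranged from -0.55 to 0.53.

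None of 12 junction genes and none of 10 genes for proteases and inhibitors of shedding passed. Cldn4 of the tight junction (-0.21 ± 0.21), Perp of the desmosome (-0.56 ± 0.19, limma adjusted p = 0.101) and the plakophilin Pkp1 (-0.15 ± 0.20) were the brightest of the junction group, which ranged from -0.56 to 0.81. The brightest of the second group, which ranged from -0.57 to 0.57, were the membrane protease St14 (-0.35 ± 0.26), the kallikrein Klk7 (-0.07 ± 0.19) and the inhibitor Spint1 (-0.43 ± 0.39).

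Of 8 barrier lipid genes, Elovl4, which lengthens fatty acids for skin ceramides, was the 1 called higher (12.5%, beside 2.83% of all genes). It rose by 0.94 ± 0.21 (limma adjusted p = 0.0192). It was not well above background in red in vehicle, and the red channel alone gave 1.77-fold (0.83 ± 0.27, limma adjusted p = 0.356). Without the first DAPT array the change was 0.73 and the call was lost. The rest ranged from -0.78 to 0.48, with Smpd1 (-0.18 ± 0.19) and Alox12b (-0.37 ± 0.19) among the brightest.

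Of 8 keratins of stratified layers, 1 was called higher (12.5%, beside 2.83% of all genes). This was Krt16, a keratin of wounded and fast-dividing epidermis. Its log2 ratio was 1.47 and 0.51 in vehicle and 2.52 and 2.64 under DAPT, a change of 1.59 ± 0.27 (limma adjusted p = 0.00507), with no overlap. Krt13 (-0.25 ± 0.21), Krt6b (-0.18 ± 0.22) and Krt17 (0.21 ± 0.24) were brighter and did not pass, and those that did not pass ranged from -0.67 to 0.46.

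Of 16 transcription factors of terminal differentiation, 2 were lower (12.5%, beside 3.99% of all genes). Grhl1, a grainyhead factor that acts on desmosome genes, went from 3.08 and 1.90 to 1.12 and 1.22, a change of -1.32 ± 0.30 (limma adjusted p = 0.0218), and lost its call without the first vehicle array (-0.73, adjusted p = 0.0646). Hopx, a homeodomain protein that binds no DNA itself, changed by -0.89 ± 0.24 (limma adjusted p = 0.0430) and lost its call without the first vehicle array (-0.55, adjusted p = 0.179) and without the first DAPT array (adjusted p = 0.0646). Among the brightest factors that did not pass were Cebpa (0.17 ± 0.20) and Ehf (-0.97 ± 0.37, limma adjusted p = 0.135), and the lowest value among those that did not pass was -1.18.

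The 11 other surface and calcium-binding genes of suprabasal cells had the lowest group median, -0.33. Of these, 3 were lower (27.3%, beside 3.99% of all genes) and none higher. Ly6d, a surface protein of squamous cells, fell from log2 ratios of 4.74 and 4.11 to 2.34 and 2.23, a change of -2.14 ± 0.23 (limma adjusted p = 2.5e-04). Gjb2, the gap junction protein connexin 26, fell from 2.45 and 2.72 to 0.83 and 0.75, a change of -1.80 ± 0.20 (limma adjusted p = 3.0e-04). Both groups of arrays stood well apart for both genes. S100a16 changed by -0.70 ± 0.19 (limma adjusted p = 0.0477), a call that was lost without any 1 of the 4 arrays, at adjusted p of 0.0677 to 0.159. Ahnak (-0.33 ± 0.19), Anxa1 (-0.38 ± 0.22) and S100a14 (-0.59 ± 0.31) were the brightest that did not pass, within a range of -0.59 to 0.81.

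**Figure D4:**
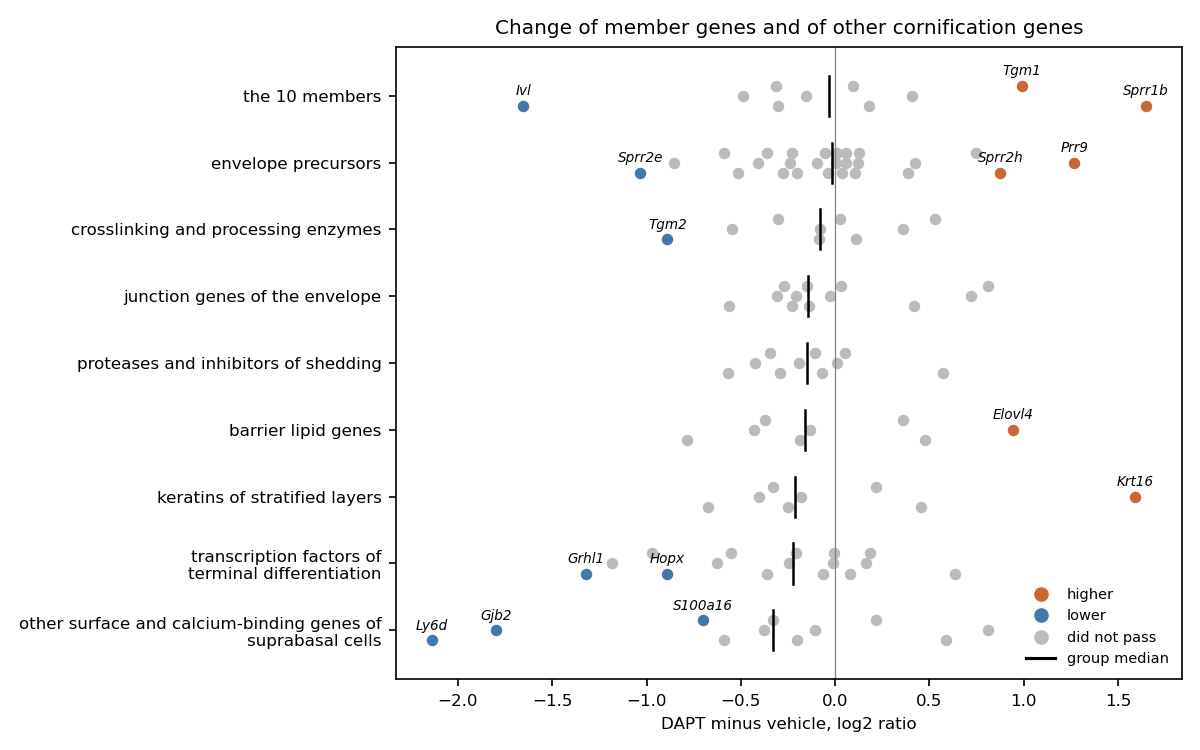
Change under DAPT (x axis, log2 ratio, DAPT minus vehicle) of each gene tested, for the 10 genes and for 8 groups of other cornification genes (y axis). Coloured points passed at an adjusted p under 0.05 and vertical bars are group medians. Among the 100 other genes, 4 passed higher and 7 lower (4% and 7%, beside 2.83% and 3.99% of all genes). All group medians lie between -0.33 and -0.02.

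Of the 10 genes, 5 lie in the epidermal differentiation complex, a cluster of envelope and S100 genes on chromosome 3. The RefSeq gene table, used only for gene order, places 99 genes from S100a11 to S100a1, of which 94 are not among the 10 and 33 of these could be tested. Sprr1b, Sprr3, Sprr1a, Sprr4 and Ivl are direct neighbours in that order. Their changes along it were 1.65, 0.18, -0.32, -0.24 and -1.65. This run was cut at the gene that rose and the gene that fell, so their place at its ends follows from that choice. Beyond it, Sprr2k, next to Sprr1b, changed by -0.36, and Smcp, the next gene tested after Ivl, by 0.21. No test was made of this order, which was noticed in the values.

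Among the 33 other genes of the complex, 2 were higher (6.06%, beside 2.83% of all genes) and 5 lower (15.2%, beside 3.99%), with a median of -0.10 and a range of -1.58 to 1.27. The genes that passed were Prr9 and Sprr2h above, and Sprr2e, S100a16, S100a1, S100a13 and S100a6 below. Prr9 and Sprr2h entered the test only through the DAPT group, where they are high, and the filter on all 4 arrays drops both. S100a1 went from log2 ratios of 1.14 and 0.88 to -0.58 and -0.56, a change of -1.58 ± 0.20 (limma adjusted p = 6.3e-04). S100a6 changed by -0.95 ± 0.19 (limma adjusted p = 0.0121), a call lost with processed signals (0.160), median centring (0.158) and debris kept (0.118). S100a13 changed by -0.75 ± 0.20 (limma adjusted p = 0.0393), a call lost without the second vehicle array or either DAPT array, at adjusted p of 0.0880 to 0.127. It was also lost with processed signals (-0.41, 0.475), median centring (-0.45, 0.157), debris kept (0.266) and a normexp offset of 16 (0.0690). The S100 genes encode small calcium-binding proteins.

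In the authors' deposited table, the changes of Ivl, Sprr1b and Tgm1 were -1.66, 1.63 and 0.99, close to the values above. Tested alone, without the reference, the red channel called 0 genes higher and 1 lower of 21477, while 2618 genes had an unadjusted p under 0.05 (limma). In that fit Ivl, Sprr1b and Tgm1 changed by -1.42, 1.72 and 1.07, at adjusted p of 0.329, 0.228 and 0.309.

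**Figure D5:**
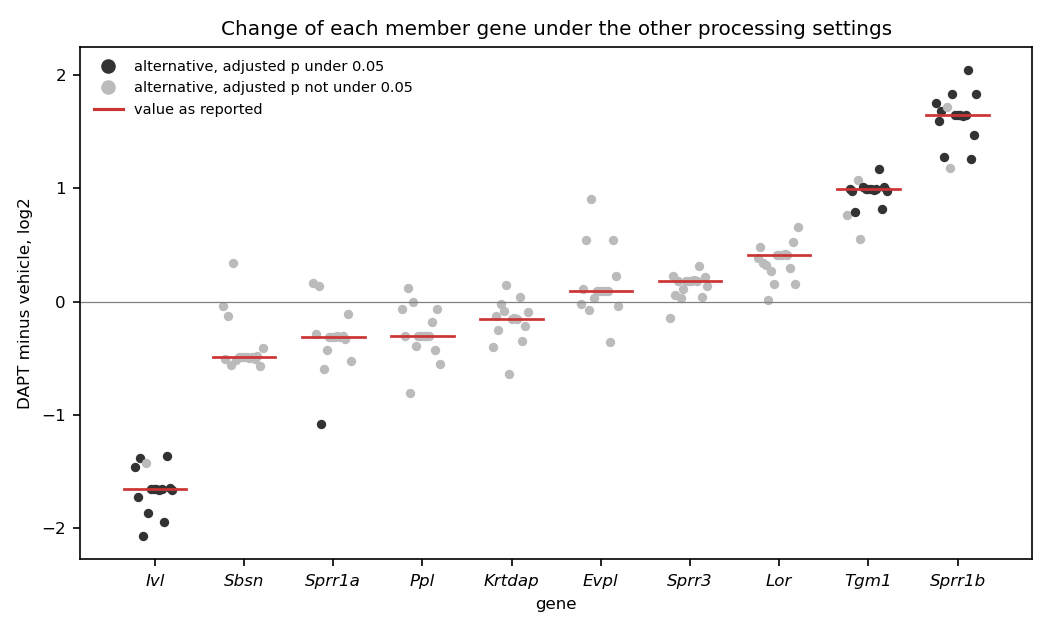
Change under DAPT (y axis, log2) of each of the 10 genes (x axis) as reported (red bars) and under every other setting that gave a value (points, dark where the adjusted p was under 0.05). Ivl stays between -2.06 and -1.36, Tgm1 between 0.55 and 1.17 and Sprr1b between 1.18 and 2.04, while Evpl, Krtdap, Ppl, Sbsn, Sprr1a and Sprr3 have points on both sides of 0.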

How the data were processed

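RNA of sorted, cultured prostate basal cells was measured on 4 arrays with 2 colours, from 2.5 µg of total RNA per the labels. Per the file headers, Agilent Feature Extraction 10.7.3.1 wrote each scanner file, with the intensity of spot and local background as median pixel brightness, not normalized. The processed intensity values, per the file headers, had the background subtracted and the dyes normalized by the software. Its log10 ratio, as deposited, served only to orient the authors' values. The authors' deposited table holds log2 values whose normalization the sources used here do not name. It correlated at 0.869 to 0.902 with the scanner ratios, so its direction is sample over reference. Its column medians were 0.00072, -0.011, -0.015 and -0.011. It correlated at 0.9996 to 0.9998 with the ratios computed here. No dye was swapped, so a dye effect cancels only as far as it is the same on all arrays.

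Spots were corrected with normexp (offset 50) and normalized by loess within arrays in limma 3.58.1 (R 4.3.3). Left out were control spots and 13 spots on debris of 1 DAPT array, whose local background exceeded 5 times the median. A probe was kept if its red signal was well above background throughout at least 1 group, and where several probes of a gene were kept the one brightest over both channels was tested, which left 21477 genes. Of 41174 probes, 24375 had a gene symbol through the RefSeq gene table, and genes without one were kept by accession. The offset makes fold changes of dim genes smaller. limma's moderated test on 2 residual degrees of freedom, with a prior of 10.5, was two-sided, with Benjamini-Hochberg adjustment over all genes at 0.05. It was also run on simulated data with independent noise. That simulation held no array, position, dye or debris effect, so it cannot show how the test behaves under them. The red channel folds of Sprr2h and Elovl4 compare red channels after loess and Aquantile, the quantile normalization of mean brightness between arrays. On each array of the dim group they take the probe's signal or the lowest one well above background, whichever is higher. For both genes the probe's own signal was used throughout, so the folds are point estimates and not lower bounds. They are open to dye bias. With 2 arrays a group, their number limits the precision.

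The 10 genes, the cornification groups and the marker lists were chosen with earlier results of these data known, so the report gives counts and medians for lists and no test of a list. The rule for naming genes was to name all of the 10, every other cornification gene that passed, up to 3 brightest per group that did not, and passing neighbours in the gene complex. Some genes of the lists are not reported here. Same-numbered arrays of the 2 groups correlated at 0.086 in their deviations, so the numbers were not taken as pairs.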

Additional observations from a re-analysis of the deposited data

How the results depend on the processing

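Ivl, Sprr1b and Tgm1 kept their direction under every setting tried, and the calls they lost are given with their values in the report. Across all genes, the counts higher and lower were 283 and 336 with the scanner's processed signals, 1216 and 527 with median centring, 369 and 974 with scale normalization, 0 and 1 with the sample channel alone, 4 and 83 with debris spots kept, and 318 and 211 with marked spots left out. The share of calls that were higher was 41.4% as reported, 69.8% with median centring, 27.5% with scale normalization, 4.6% with debris kept, 60.1% with marked spots left out and 0% in the sample channel. The median change of all genes was -0.06 as reported, 0.09 with processed signals and 0.11 with median centring. Of the 10 genes, those higher numbered 1 with processed signals, and 0 with the sample channel alone or debris kept. Those lower numbered 2 with scale normalization, and 0 with the sample channel alone or with marked spots left out, where Ivl could not be tested. Of the other cornification genes, those higher numbered 0 with the sample channel alone or debris kept, 1 with the filter on all 4 arrays, 8 with the replicate block and 2 to 11 with an array left out. Those lower numbered 3 with processed signals, 21 with scale normalization, 0 with the sample channel alone, 2 with debris kept, 4 with marked spots left out and 4 to 14 with an array left out. The cause of these shifts was not tested. The replicate block gave 874 higher and 1184 lower over all genes, and 2 higher and 1 lower of the 10. The sign turned for Evpl with processed signals (-0.018), with scale normalization (-0.073) and with an array left out (-0.35 to 0.54), for Krtdap with debris kept (0.15) and with an array left out (-0.35 to 0.038), for Ppl with median centring (0.12), for Sbsn in the sample channel (0.34), for Sprr1a with median centring (0.14) and processed signals (0.17), and for Sprr3 with processed signals (-0.14). The slide and scan time could not be fitted as a block, since all 4 arrays share 1 of each. Without the dim-probe filter the other Krtdap probe was read, which is brighter over both channels together but not well above background in red on any array. The filter on all 4 arrays drops Krtdap. Lor, Sprr3 and Krtdap lay near background in red, which limits what these arrays can show of them. The vehicle red signals of Sprr1b and Tgm1 were also low, at 2.03 to 3.34 times local background.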
